A study of Mus musculus with 3 samples.

Results

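Spp1-high cells are the cells of 1 mouse culture with the most osteopontin mRNA. A cell was counted in when it held at least 5 unique molecules (UMIs) of Spp1 and these made up at least 0.3% of its UMIs. Barcodes with fewer than 500 genes, fewer than 1000 UMIs or over 20% mitochondrial UMIs were left out. Of the 14925 kept cells, 1053 met this rule, or 7.06% (exact 95% interval 6.65% to 7.48%). They held 72.4% of the Spp1 UMIs of all kept cells, 28539 of 39419. The label names 1 gene and no cell type. The cells proved to be of more than 1 kind: 803 carried mesenchymal marker transcripts, 68 were intermediate, and 182 carried at most 1 such transcript.

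The culture, called PC, came from mouse esophageal organoids, which are epithelial cells grown in gel. Their floxed Trp53 alleles had been deleted with an adenovirus carrying Cre and EGFP, and Cdkn2a had then been disrupted with CRISPR/Cas9. The cells expressed Cas9 constitutively, received a barcode library by lipofection, and went through 3 passages before live RFP-positive cells were sorted. The labels give the tissue as esophageal cancer and describe a second culture with a Notch1 knockout, PCN, which was not analysed here. Every cell described below comes from this culture and shares its history, so no comparison is one of genotype by the labels. Whether each cell carries the deletion and the disruption was not tested. With 1 culture there is no replicate, no test and no p-value. Intervals cover counting error only, since nothing here measures the spread between cultures.

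Spp1 encodes osteopontin, a secreted phosphoprotein of the SIBLING family that is bound by integrins and by Cd44. It is best known from bone, macrophages and wound healing, and it is also made by many carcinomas and by activated fibroblasts. Proteases including thrombin and matrix metalloproteinases cleave it, and the kinase Fam20c phosphorylates it. RUNX and AP-1 factors are among those linked to its promoter.

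Spp1 (ENSMUSG00000029304) lies on mouse chromosome 5 from 104435118 to 104441050 on the plus strand in GENCODE M21 (GRCm38). The window is shown because it is the stretch where RUNX-type and AP-1-type letters would be sought, and Runx2 is among the genes reported below. It holds the 250 bases before the RefSeq start (GRCm38.p6), chr5:104434861-104435110, plus strand, with matches to the searched motifs in capitals.

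Spp1 upstream window: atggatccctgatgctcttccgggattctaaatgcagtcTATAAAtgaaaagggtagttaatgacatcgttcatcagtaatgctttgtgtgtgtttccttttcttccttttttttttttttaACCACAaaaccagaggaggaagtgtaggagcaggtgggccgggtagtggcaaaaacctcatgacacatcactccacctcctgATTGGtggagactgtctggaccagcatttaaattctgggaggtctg

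The letters ACCACA (or TGTGGT), the core of a RUNX-type site, occurred 1 time, 128 bases before the start, and 14.0% of 32851 windows of the same length hold them. CCAAT (or ATTGG) occurred 46 bases before the start, and 33.8% of windows hold it. TATAAA (or TTTATA) occurred 211 bases before the start, against 12.4% of windows. The AP-1-type letters TGANTCA had no match in these 250 bases and were found in 6.75% of windows. Both strands were searched, and none of the matches overlap. A match describes letters and is not a site.

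Spp1 itself chose the cells, so its values are given as a description. Members held 5 to 408 Spp1 UMIs, with a median of 19, and Spp1 made up a median of 0.591% of their UMIs. The highest cell held 408 of 4925 UMIs, or 8.28%. The cell just inside the limit had 9 of 3000 UMIs and the cell just outside it had 12 of 4010, or 0.299%. A further 787 cells held at least 5 Spp1 UMIs but stayed under 0.3%. The limit therefore cuts through a continuous range.

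The first question was which cells these are. Cells were split by the summed UMIs of Vim, Col5a1, Grem1, Aebp1 and Ccn5, 5 genes of mesenchymal cells. Among 1641 cells with a sum of at least 3, called mesenchymal-marker cells here, 48.9% were Spp1-high (46.5% to 51.4%). Among 13100 cells with a sum of at most 1, called low-marker cells, 1.39% were (1.20% to 1.60%). The 184 cells with a sum of 2 lay between, at 37.0% (30% to 44.4%). Spp1 was nearly ubiquitous in mesenchymal-marker cells, where 94.8% held at least 1 UMI (93.6% to 95.8%), against 23.1% of low-marker cells (22.4% to 23.9%). At an equal depth of 1500 UMIs per cell, with 1644 shallower cells left out, the shares of Spp1-high cells were 47.3% and 1.68% when the marker sum was taken before thinning. With the marker sum taken after thinning as well, they were 49.8% and 3.20% (2.89% to 3.53%).

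**Figure D1:**
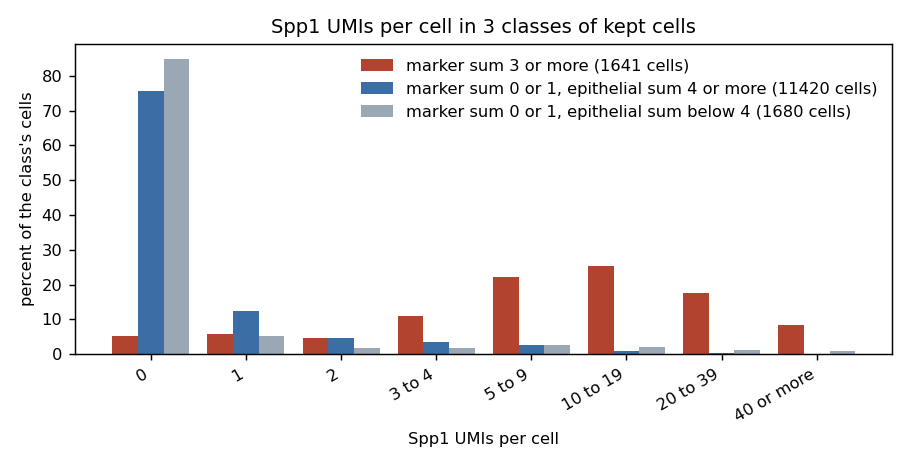
Share of cells (percent, vertical axis) at each number of Spp1 UMIs per cell (horizontal axis) in mesenchymal-marker cells and in low-marker cells split by the summed UMIs of Epcam, Cdh1, Krt5 and Krt14. Only 5.24% of mesenchymal-marker cells had no Spp1 UMI, against 75.7% of low-marker cells with an epithelial sum of at least 4.

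A low level of Spp1 was spread over epithelial cells as well. The 11420 low-marker cells with at least 4 UMIs of Epcam, Cdh1, Krt5 and Krt14 had Spp1 at 220 CPM (CPM, a gene's UMIs per 1000000 UMIs; 215 to 225), which is 4.76% of the 4623 CPM in mesenchymal-marker cells, and 24.3% of them held a UMI. The same ratio was 0.221% for Col3a1, 0.840% for Dcn and 1.02% for Col1a1, and 8.36% for Fn1 and 9.57% for Sparc. Closer to Spp1 were Tagln with 3.28%, Zeb1 with 4.07% and Acta2 with 4.74%. Acta2 was at 5313 CPM in mesenchymal-marker cells, and 25.5% of the epithelial cells held a UMI of it. The median depth was 3046 UMIs in these epithelial cells and 3404 in mesenchymal-marker cells. How much of the low Spp1 signal is RNA taken up from the medium was not tested.

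Clustering made without Spp1 placed 945 of the 1053 cells, 89.7%, in 1 cluster. This cluster 4, led by Grem1, Ccn5, Cacna1c, Adam19, Col5a1 and Vim, held 1961 cells, of which 48.2% were Spp1-high (46.0% to 50.4%). It held all 803 mesenchymal-marker members, all 68 members with a sum of 2 and 74 of the 182 low-marker members. Among the epithelial clusters, cluster 5, led by Ltf, Gabrp and Lcn2, held 42 members, 3.18% of its cells (2.30% to 4.28%). Cluster 1, led by Prl2c3, Prl2c2, Sprr1b and Wfdc18, held 36, or 0.815% (0.572% to 1.13%). Cluster 9, a small group of 116 cells led by Ly6c1, Pate14 and Krt7, held 10, or 8.62% (4.21% to 15.3%), and 81.9% of its cells had a Spp1 UMI. The cycling cluster 3 held 9 members, cluster 2 held 7, cluster 7 held 3 and cluster 11 held 1. Clusters 6, 8 and 10 held 0. For cluster 6, with 658 cells, 3 cells would be a share of 0.456%.

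**Figure D2:**
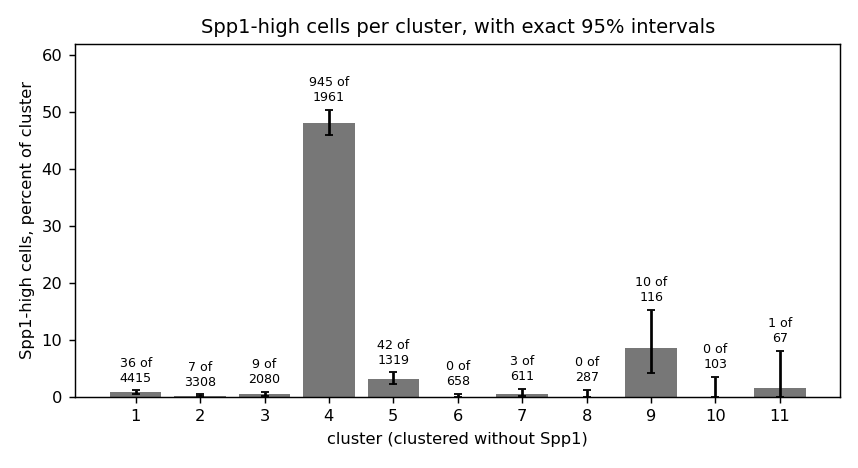
Spp1-high cells as a percent of each cluster (vertical axis), with exact 95% binomial intervals, for 11 clusters made without Spp1 (horizontal axis). Counts of members and cells stand above the bars: cluster 4 reaches 48.2%, and cluster 9 follows with 8.62%.

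The 182 low-marker members were a mixture. Of these, 106 had an epithelial sum of at least 4, 63 had a sum of 0 or 1, and 13 had 2 or 3. The 74 members in cluster 4 held a median of 13 UMIs of 11 other mesenchymal markers (Col1a1, Col1a2, Col3a1, Zeb1, Zeb2, Fn1, Sparc, Dcn, Lum, Pdgfra and Pdgfrb), and 8 of them had an epithelial sum of at least 4. The 108 members outside cluster 4 held a median of 2, and 98 of them had such an epithelial sum. The name epithelial cells thus applies to the second set, and by these counts the low-marker members of cluster 4 were closer to the mesenchymal-marker members. The 803 mesenchymal-marker members held a median of 21 such UMIs, and 43 of them also had an epithelial sum of at least 4. Those 43 had a median of 4489 UMIs and a median doublet score of 0.187, against 3262 UMIs and 0.0288 for all 803; whether they are doublets was not tested.

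**Figure D3:**
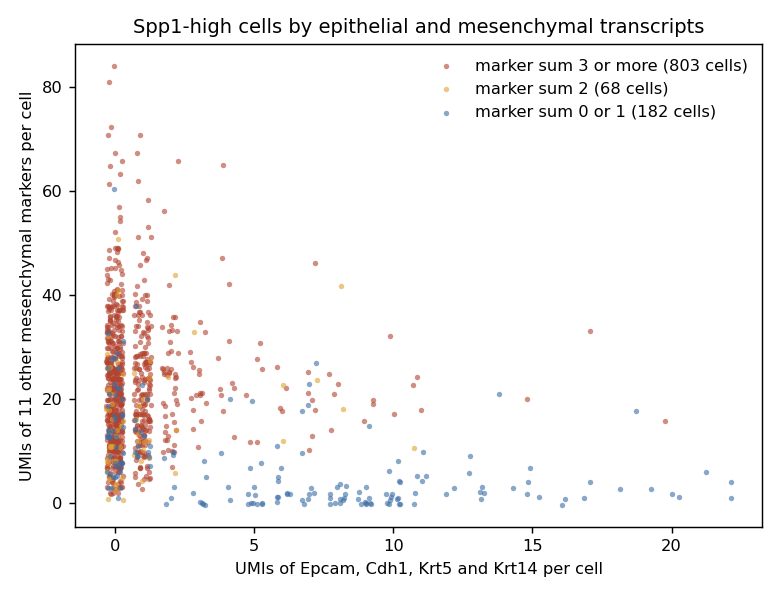
Each point is 1 of the 1053 Spp1-high cells, by UMIs of Epcam, Cdh1, Krt5 and Krt14 (horizontal axis) and UMIs of 11 other mesenchymal markers (vertical axis), with a jitter of at most 0.3 UMIs. Cells with a marker sum of at most 1 (blue) fall into both arms: 106 of 182 have at least 4 epithelial UMIs.

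Markers of other cells that make osteopontin were at or near 0. Over all 1053 members, 9 of 17 macrophage and leukocyte genes had 0 UMIs, among them Ptprc, Lyz2, Adgre1, C1qa and Tyrobp, while Csf1r, Mrc1 and Fcer1g had 1 UMI each. The others, which are also found outside macrophages, had 94 UMIs (Gpnmb), 86 (Cd14), 51 (Cd68), 12 (Trem2) and 12 (Fcgr3). Summed over the list this was 71.4 CPM in mesenchymal-marker members and 82.4 CPM in the cells of that class without Spp1. The osteoblast genes Sp7, Bglap, Ibsp and Dmp1 had 0 UMIs, and Alpl had 5. Runx2, a bone-lineage factor, had 653 UMIs in 43.7% of members. Of 6 endothelial genes Pecam1 alone was found, with 2 UMIs, and Cd3e was the only lymphocyte gene, with 1.

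The next question was what else distinguishes mesenchymal-marker cells that hold much Spp1 from those that hold none. The 803 Spp1-high cells were set against the 86 cells with 0 Spp1 UMIs in the same range of total UMIs. The sets had similar depth, with medians of 3262 and 3344 UMIs. A gene was called when its level differed by 2 times or more, the higher level was 10 CPM or more, and the 95% Poisson intervals did not overlap. Of 9088 genes with at least 10 CPM in either set, 45 were called higher (0.495%) and 65 lower (0.715%), so the sets resembled each other in all but a few genes. The 86 cells give only 291131 UMIs, which limits what can be seen. A step added after seeing the data left out the top cell of the higher set for each gene. It kept 38 of 45 higher calls (0.444% of the genes then tested) and 14 of 65 lower calls (0.164%). The step takes 1 of 803 cells for a higher gene but 1 of 86 for a lower gene, so these counts cannot be compared directly. With both sets limited to an epithelial sum of at most 1, 33 genes were higher (0.38%) and 60 lower (0.692%), and with both limited to cluster 4, 43 (0.475%) and 58 (0.64%).

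Osteopontin receptors were expressed in both sets and none was called. Cd44, the hyaluronan receptor that also binds osteopontin, was at 459 CPM in Spp1-high and 546 CPM in Spp1-zero cells. Itgb1, the integrin beta subunit with the widest set of partners, was at 784 and 890 CPM. Itgav, its alpha partner at the RGD motif, was at 222 and 289 CPM, Itgb5 at 190 and 148 CPM, and Itgb3 at 79.2 and 99.6 CPM. Of 11 listed receptors 7 were tested, and their median log2 ratio was -0.25, beside -0.04 over all genes tested.

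Of the processing genes, Mmp12, an elastase of the metalloproteinase family, was called lower, at 61.1 CPM (52.1 to 71.1) against 340 CPM (276 to 414). That call came from 8 of the 86 Spp1-zero cells, of which 1 supplied 45.5% of the UMIs. Ctsd, a lysosomal protease, was at 411 and 398 CPM. Mmp10, a stromelysin, was at 17.4 against 131 CPM, but 1 cell supplied 81.6% of the UMIs on the higher side and the call was lost without it. No factor among 16 tested of the list linked to Spp1 was called: Runx1 was at 578 and 484 CPM, and Runx2 at 188 and 175 CPM.

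Some of the largest called ratios belonged to genes of low abundance. Erbb4, a neuregulin receptor of the EGF receptor family, was at 56.6 CPM (48.0 to 66.4) in Spp1-high cells and had 1 UMI in the 86 Spp1-zero cells, a ratio of 16.5 with a counting interval of 2.92 to 655. Rasl11a, a Ras-like GTPase, was at 65.9 CPM against 2 UMIs, a ratio of 9.59 (2.62 to 79.8). Nox4, an NADPH oxidase that makes hydrogen peroxide, was at 48.9 CPM against 2 UMIs, a ratio of 7.11 (1.93 to 59.4). These 3 ratios are large, but their lower limits lie between 1.93 and 2.92.

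Some called genes encode secreted or shed ligands. Ccl20, the ligand of Ccr6, was at 89.6 CPM (78.6 to 102) against 17.2 CPM (5.58 to 40.1). Cxcl10, an interferon-induced chemokine, was at 56.6 against 13.7 CPM, and Cx3cl1, fractalkine, at 80.7 against 24.0 CPM. Tgfb3, a TGF-beta ligand, was at 61.8 against 20.6 CPM. Of 15 tested chemokines and cytokines, Ccl20 and Cxcl10 were called higher and none lower, with a median log2 ratio of 0.24.

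Of 24 tested matrix genes, 2 were called higher and 1 lower, beside 0.495% and 0.715% of all genes tested. Col3a1, fibrillar collagen III, was at 106 CPM (94.0 to 119) against 27.5 CPM (11.9 to 54.1), and Col6a1, a chain of collagen VI, at 65.9 against 20.6 CPM. Mmp13, a collagenase, was called lower at 6.29 against 44.7 CPM, a call lost without its top cell. The other 21 were not called, and the median log2 ratio of the list was 0.09. All 10 tested contractile genes stayed uncalled, with a median of -0.08, and so did 9 tested cycling genes, with a median of -0.52.

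The remaining leading genes had no common theme. Tcim, Itm2a, Mafg, Rasa3 and Cdk14 were at 3.64, 3.49, 3.23, 3.19 and 3.18 times their level in Spp1-zero cells. Wfdc18, a secreted whey acidic protein, was lower at 230 against 838 CPM, but 1 cell supplied 65.2% of the UMIs of the Spp1-zero set, and the call was lost without it. With a marker sum of at least 5 in both sets the log2 ratio of Wfdc18 turned to 2.36. Atad2, Snrnp40, Mtfr1l, Uqcc3 and Otud5 were at 24.8 to 33.7 CPM in Spp1-high and 65.3 to 85.9 CPM in Spp1-zero cells and were still called without their top cells. Gmpr, Sec61a2, Zdhhc13 and Calcb were called at 19.2 to 24.4 against 51.5 to 58.4 CPM, but not without that cell.

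Since few cells had 0 Spp1 UMIs, the same members were also set against all 836 mesenchymal-marker cells below the rule. Here 35 of 8567 genes were higher (0.409%) and 25 lower (0.292%). The sets share the members, so the comparisons are not independent. Of the 45 and 35 higher genes 10 were common, 22.2% and 28.6% of the lists, and of the 65 and 25 lower genes 7 were, 10.8% and 28.0%. The common higher genes were Col3a1, Erbb4, Ccl20, Rasl11a, Nox4, Plac8, Cck, Sfrp4, Col6a3 and Cthrc1. Against the cells below the rule their ratios ran from 2.02 (Col6a3 and Nox4) to 3.57 (Ccl20), with Erbb4 at 3.38, Rasl11a at 3.30 and Col3a1 at 2.18. In the first comparison the calls of Cck, Col6a3 and Cthrc1 were lost without the top cell. Col6a3 and Cthrc1 had 0 UMIs in the Spp1-zero cells. Of the 7 common lower genes, Ang2 alone was still called there without its top cell. For 4 named genes that were called, the direction turned against the cells below the rule. The log2 ratio was -0.16 for Cxcl10, -0.41 for Ly6d, 0.046 for Uqcc3 and 0.041 for Mmp13. Cck, Sfrp4, Col6a3 and Cthrc1 are named because of this overlap, which was seen in the data.

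Across the whole range of Spp1 in mesenchymal-marker cells, some levels changed in steps. Erbb4 was at 3.43, 8.28, 17.3, 24.8 and 52.3 CPM in cells with 0, 1 to 2, 3 to 4, 5 to 9 and 10 or more Spp1 UMIs. Col3a1 was at 27.5, 39.7, 42.4, 44.1 and 108 CPM over the same cells. In these values Erbb4 was higher at each step, while the rise of Col3a1 lay mainly in the last. The groups held 86, 167, 180, 363 and 843 cells, so the first levels of Erbb4 rest on few UMIs. Whether neighbouring steps differ beyond counting error was not tested. Ctsc, cathepsin C, was at 357 CPM without Spp1 and 578 CPM with 10 or more UMIs, and Igfbp7, a secreted IGF-binding protein, at 7155 and 8619 CPM. Timp3, a matrix-bound inhibitor of metalloproteinases, went the other way, from 1319 (1190 to 1458) over 1214, 1169 and 995 to 826 CPM (794 to 859). At equal depth Igfbp7 had the highest Spearman correlation with Spp1, 0.273 over 1631 cells, followed by Ctsc with 0.205 and Cp, ceruloplasmin, with 0.185. The most negative were Tpm1, a tropomyosin, with -0.21, Timp3 with -0.18 and Tmsb4x, thymosin beta 4, with -0.18. All of these are weak and are given as a description.

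**Figure D4:**
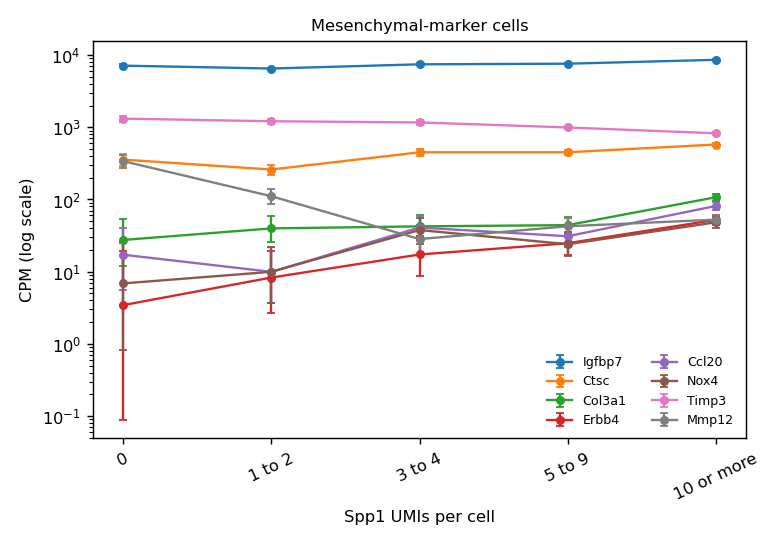
Levels (CPM, log scale, vertical axis) with 95% Poisson intervals of 8 genes in mesenchymal-marker cells grouped by Spp1 UMIs per cell (horizontal axis). Erbb4 goes from 3.43 to 52.3 CPM, Timp3 from 1319 to 826 CPM, and Mmp12 is highest, at 340 CPM, in the 86 cells without Spp1.

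The same comparison in low-marker cells set 182 Spp1-high cells against 9543 cells with 0 Spp1 UMIs. It called 553 of 9161 genes higher (6.04%) and 334 lower (3.65%), of which 379 (4.27%) and 327 (3.69%) were kept without the top cell. Part of this list followed the mixture of cells described above. Among its leading genes, Il13ra2, a decoy receptor for interleukin-13, was at 177 against 2.28 CPM, Dkk2, a Wnt modulator, at 68.2 against 1.54 CPM, and Col1a1 at 97.1 against 2.66 CPM. Outside cluster 4 they had only 9, 4 and 4 UMIs in members, and Col1a1 was not called. Tagln, a smooth-muscle actin-binding protein, was at 419 against 23.3 CPM in all low-marker cells and had 0 UMIs in the 108 members outside cluster 4. Acta2, smooth-muscle actin, was higher at 942 against 305 CPM in all of them and lower outside cluster 4, at 16.2 (5.95 to 35.3) against 302 CPM. Sparc, a matrix glycoprotein, turned likewise, from 608 against 171 CPM to 56.7 against 171 CPM. The comparison was therefore repeated outside cluster 4 and within clusters 1 and 5, choices made after seeing these values. With an epithelial sum of at least 4 in both sets, 385 genes were higher (4.25%) and 245 lower (2.7%), and with at most 1 other mesenchymal UMI as well, 283 (3.12%) and 162 (1.79%).

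Outside cluster 4, the 108 Spp1-high cells were set against 8891 Spp1-zero cells. Of 9042 genes, 363 were higher (4.01%) and 285 lower (3.15%), and 205 (2.35%) and 281 (3.22%) of these were kept without the top cell. Median depth was 3353 UMIs in the members and 2813 in the others. These members held a median of 14 Spp1 UMIs, and Spp1 made up at most 1.44% of a cell's UMIs. The sets differed in secretory, chemokine, keratin and contractile genes, among others.

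Of 5 tested secretory genes, Lcn2, Wfdc2 and Slpi were called higher, Wfdc18 was called lower and Ltf, lactoferrin, was not called. Lcn2, the siderophore-binding lipocalin-2, was at 2342 CPM (2188 to 2503) in Spp1-high and 252 CPM in Spp1-zero cells, and 53.7% against 14.1% of the cells held a UMI. Slpi, an inhibitor of leukocyte proteases, was at 762 CPM (675 to 856) against 86.2 CPM, in 54.6% against 13.6% of cells. Wfdc2, a whey acidic protein of secretory epithelia, was at 4921 against 1812 CPM. Wfdc18, of the same protein family, went in the opposite direction, with 591 CPM (516 to 675) against 8543 CPM. Saa3, an acute-phase protein, was at 324 against 0.966 CPM, but it was found in 4 cells of which 1 supplied 70.8% of the UMIs.

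Most tested genes of the chemokine and cytokine list were higher in these members. Of 16 tested chemokines and cytokines 10 were higher and none was lower, with a median log2 ratio of 1.36 beside 0.0017 over all genes tested. Cxcl5, which attracts neutrophils through Cxcr2, was at 4943 CPM (4719 to 5174) against 1527 CPM, in 86.1% against 62% of cells. Cxcl1 was at 1413 against 423 CPM and Cxcl3 at 548 against 117 CPM, both of them ligands of the same receptor. The monocyte attractants Ccl2 and Ccl7 were at 880.5 against 283 CPM and 197 against 37.7 CPM. Il1a, an alarmin of epithelial cells, was at 227 against 62.1 CPM, and Ccl20 at 108 against 14.6 CPM, with 37.5% of its UMIs in members from 1 cell. Cxcl2, Tslp and Lif were also called, while Csf1, Cxcl10, Cxcl16, Ppbp, Il33 and Tnf were not. Ccl9, a chemokine outside the list, was lower, at 27.0 against 256 CPM. Of 17 macrophage genes 13 had 0 UMIs in these members, and the list summed to 99.9 against 59.8 CPM, with Cd14 called higher; its part in the chemokine levels was not tested.

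Basal keratinocyte genes were lower. Of 7 tested basal genes 6 were called lower, with a median log2 ratio of -1.35. Krt14 was at 338 CPM (281 to 402) against 1450 CPM, and Krt5, its partner in basal cells, at 308 (254 to 370) against 786 CPM. Krt17 was at 562 against 1717 CPM. Col17a1 and Itgb4, hemidesmosome proteins, were at 124 against 424 CPM and 48.6 against 116 CPM, and Trp63, the p63 factor of basal cells, at 83.7 against 174 CPM. Krt8 and Krt18, the keratin pair of simple epithelia, were higher, at 254 against 124 CPM and 456 against 216 CPM, though the call of Krt8 was lost without its top cell. Krt14 and Krt5 enter the epithelial sum but not the rule that chose the cells.

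Further lists also had called genes. Of the contractile list, Acta2, Tagln, Cnn2 and Tpm2 were lower and none was higher. Cnn2 was at 37.8 against 110 CPM and Tpm2 at 208 against 449 CPM. Of the YAP and TGF-beta targets, Ccn1, Ccn2 and Tgfbi were lower and Ankrd1 higher. Of the immediate early genes, Ier3, Dusp1 and Klf2 were higher and Klf4 lower. Of the epithelial-mesenchymal transition list, Snai2 and S100a4 were lower and Zeb2 higher. The other tested genes of these lists were not called. Sprr2d, Sprr2e and Sprr2h, cornified envelope precursors encoded side by side, were at 402, 151 and 72.9 CPM against 26.2, 3.13 and 2.67 CPM. The counting of such similar genes may be uncertain. Sprr2a3 of the same family was lower, at 130 against 385 CPM. Vegfa and Slc2a1, targets of the hypoxia response, were at 108 against 37.7 CPM and 83.7 against 36.1 CPM, the latter not kept without its top cell, while the other 11 of 13 tested genes of that list were not called. Hmox1 and Slc7a11, targets of the NRF2 factor, were at 97.2 against 35.3 CPM and 83.7 against 25.7 CPM, and the other 7 of 9 tested genes of that list were not called. The calls of all lists in this paragraph stand beside 4.01% of all genes tested that were called higher and 3.15% called lower. Fth1, ferritin heavy chain, was at 5518 against 2202 CPM.

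Among osteopontin receptors none of 6 tested was called outside cluster 4. Cd44 was at 500 CPM (430 to 577) against 354 CPM, and Itgb1 at 427 against 555 CPM. Itgav was at 140 against 146 CPM. Itgb3 had 1 UMI in the 108 members. Of the processing genes, Mmp12 was at 54.0 CPM (33.0 to 83.4) against 4.29 CPM, higher here and lower in mesenchymal-marker members. F2r, the thrombin receptor, was at 48.6 against 15 CPM. Fam20c, the kinase, was at 24.3 against 9.28 CPM, from 9 UMIs, a call lost without its top cell. Runx2 was at 165 CPM (126 to 212) against 80.9 CPM, a ratio of 2.04 that fell below the limit without its top cell. It was the only factor of 17 tested that was called, where 4.01% of all genes tested were called higher and 3.15% lower.

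**Figure D5:**
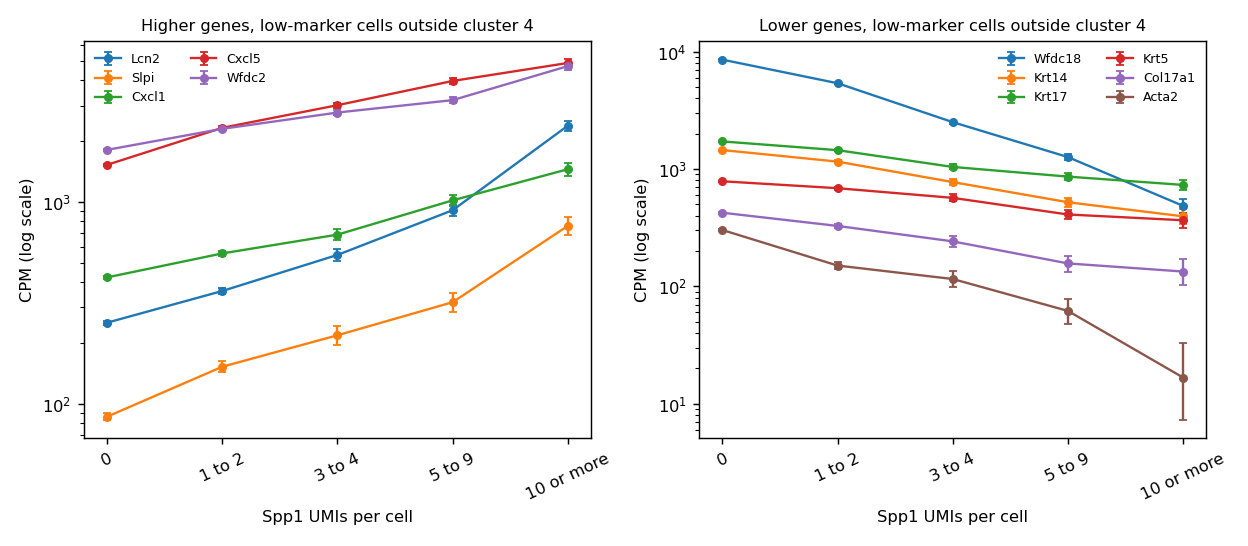
Levels (CPM, log scale, vertical axes) with 95% Poisson intervals of genes called higher (left) and lower (right) in low-marker cells outside cluster 4, grouped by Spp1 UMIs per cell (horizontal axes). Lcn2 goes from 252 to 2387 CPM and Wfdc18 from 8543 to 485 CPM, with intermediate levels in cells below 5 Spp1 UMIs.

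These levels were graded also over cells with fewer than 5 Spp1 UMIs, which the rule left out. The groups with 5 or more include the members. In cells with 0, 1 to 2, 3 to 4, 5 to 9 and 10 or more Spp1 UMIs, Lcn2 was at 252, 362, 546, 910 and 2387 CPM. Cxcl5 was at 1527, 2330, 3016, 3977 and 4882 CPM. Krt14 went down over the same cells, from 1450 over 1156, 773 and 521 to 395 CPM, and Wfdc18 from 8543 over 5378, 2507 and 1263 to 485 CPM. The order was the same at every step for these 4 genes. Depth moved with the steps, with a median of 2813 UMIs in cells without Spp1 and 3452 to 3791 in the other 4 groups, and its part in these values was not tested. The groups held 8891, 1928, 403, 279 and 123 cells. They pool clusters with unlike levels. In Spp1-zero cells Lcn2 was at 68.4 CPM in cluster 1 and 1800 CPM in cluster 5, and Wfdc18 at 12424 and 2423 CPM. The part of cluster make-up in the steps was not tested.

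Members came from clusters that differ in these genes, so the comparison was repeated inside 2 of them. In cluster 1, 36 Spp1-high cells were set against 3013 Spp1-zero cells, and 294 of 8651 genes were higher (3.4%) and 90 lower (1.04%). In cluster 5, 42 were set against 663, and 186 of 8888 genes were higher (2.09%) and 157 lower (1.77%). Without the top cell, 78 higher calls (0.955%) and 88 lower calls (1.08%) were kept in cluster 1, and 75 (0.911%) and 138 (1.68%) in cluster 5. The median log2 ratio over all genes tested was 0.36 in cluster 1 and 0.18 in cluster 5. The 2 comparisons share no cell. They had 46 higher genes in common, 15.6% of the cluster 1 list and 24.7% of the cluster 5 list, and 27 lower genes, 30% and 17.2%.

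Some of the genes described above were among the shared ones and others were not. Of the chemokine and cytokine list, 7 of 15 tested were higher in cluster 1, and 7 of 16 were higher and 1, Il33, was lower in cluster 5. Only 3 higher genes of the list were kept in each cluster without the top cell: Ccl7, Cxcl1 and Il1a in cluster 1, and Ccl2, Ccl7 and Ccl20 in cluster 5. Ccl2 and Ccl20 were not called in cluster 1, where Ccl20 had 1 UMI in members, and Il1a and Cxcl2 were not called in cluster 5. Ltf was lower in cluster 5, at 189 against 451 CPM. Lcn2 was at 549 against 68.4 CPM within cluster 1 and at 4819 against 1800 CPM within cluster 5. Slpi was at 343 against 71.6 CPM and at 1239 against 272 CPM. Cxcl1 was at 1380 against 426 CPM and at 1805 against 833 CPM, not kept in cluster 5 without the top cell. Cxcl5 was at 3781 against 1732 CPM and at 7769 against 3878 CPM, calls that ended in both clusters without the top cell. Ccl7 was at 171 against 49.2 CPM and at 296 against 51.0 CPM. Mmp12 was at 60.0 against 4.75 CPM in cluster 1, and in cluster 5 it was at 69.2 CPM against 0 UMIs. Fn1, the matrix protein fibronectin, was at 737 against 340 CPM, a call lost without its top cell, and at 491 against 127 CPM. Ch25h, a hydroxylase of cholesterol, was at 617 against 116 CPM and at 440 against 169 CPM.

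Among the shared lower genes were keratins and Wfdc18. Wfdc18 was at 643 against 12424 CPM within cluster 1 and at 220 against 2423 CPM within cluster 5, and 1 cell supplied 60% of its UMIs in the members of cluster 1. Krt14 was at 309 against 1282 CPM and at 208 against 1356 CPM, and Krt5 at 334 against 786 CPM and at 220 against 1059 CPM. Ly6d, a membrane-anchored differentiation antigen, was at 129 against 854 CPM and at 447 against 4666 CPM. Ctnnd2, delta-catenin, had 1 UMI in the members of cluster 1 against 117 CPM, a ratio of 0.0733 (0.00185 to 0.409), and 0 UMIs in the 42 members of cluster 5 against 88.0 CPM. Krt8, Krt18 and Runx2 were not called in either cluster. Fn1, Ch25h and the pairs of this paragraph were chosen from the shared genes after their values were seen.

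The lists called in mesenchymal-marker and in low-marker members were compared next. Of 45 and 553 higher genes 17 were shared, 37.8% and 3.07% of the lists, and of 65 and 334 lower genes 11 were, 16.9% and 3.29%. Of all genes tested, 6.04% were higher and 3.65% lower in low-marker members, and 0.495% and 0.715% in mesenchymal-marker members. With members outside cluster 4 in place of all low-marker cells, the shared higher genes numbered 5 of 363 (1.38%) and the shared lower genes 8 of 285 (2.81%). Of the 65 genes lower in mesenchymal-marker members, 5 (7.69%) were higher outside cluster 4, where 4.01% of all genes tested were. Of the 45 higher ones, 2 (4.44%) were lower there, beside 3.15% of all genes tested. Erbb4 and Col3a1, higher in mesenchymal-marker members, had 0 UMIs in the members outside cluster 4. Ly6d was at 46.6 CPM in mesenchymal-marker members against 2 UMIs in the cells without Spp1, a ratio of 6.79 (1.84 to 56.7) whose direction turned against all cells below the rule, and it was lower in members outside cluster 4.

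Phases of the cell cycle were compared at equal depth. In all low-marker cells, 73.3% of members (66.1% to 79.7%) and 64.3% of cells without Spp1 (63.3% to 65.3%) scored as G1, so these intervals were apart. In the other sets they overlapped. At equal depth, 80.4% of mesenchymal-marker members scored as G1 (77.5% to 83.1%) and 79.1% of the cells without Spp1 (69.0% to 87.1%). Outside cluster 4 the shares were 67.9% (58.2% to 76.7%) and 64.3% (63.2% to 65.3%). Trp53 and Cdkn2a were not called either. Cdkn2a was at 1123 against 1271 CPM in mesenchymal-marker cells and 940 (844 to 1044) against 501 CPM outside cluster 4, where the intervals were apart but the ratio of 1.88 was under 2. Trp53 was at 18.1 against 13.7 CPM and 56.7 against 46.9 CPM. Reads of a 3' assay need not cover the deleted part, so these levels do not check the knockouts. The added sequences GFP and Scar were at ratios of 0.90 to 0.93 in these comparisons.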

How the data were processed

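The deposited matrix holds UMI counts as whole numbers for each gene in each barcode, not normalized; per the file headers the software was CellRanger 8.0.1. The submitters' processing notes name mm10 and Scanpy 1.8.2. The matrix holds 18116 barcodes and 32287 features and was treated as 1 pooled sample. Its file name and header do not say which of 3 libraries supplied the reads, though 1 is titled GEX, for gene expression. Lineage barcodes and scars were not analysed here. No barcode occurs more than once.

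Levels are CPM from counts summed over cells with exact 95% Poisson intervals, and shares have exact (Clopper-Pearson) intervals. The comparison cells span the members' range of total UMIs. Spp1 and the 5 split genes were left out of calls. For ranking and for the ratio of the call rule, levels under 3 UMIs were set to 3 UMIs, which also enters list medians. In CPM this floor is higher in sets with fewer UMIs, which limits lower calls in small sets such as the members within clusters 1 and 5. Scrublet called 1 of 14925 cells (0.0067%), too few for a working call, so doublets were not removed. Clusters came from scanpy 1.11.5 and igraph 0.11.9 (2000 variable genes without Spp1, 30 components, 15 neighbours, resolution 0.6). Cells were thinned to 1500 UMIs for phases and correlations, which left 13281. The call rule was run on simulated Poisson sums, which cannot show how it does where the counts of a gene gather in single cells. Python 3.11.15, numpy 2.4.6, scipy 1.17.1, pandas 2.3.3 and matplotlib 3.10.9 were used.

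Named genes are up to 12 called genes a direction with the largest ratios and at least 50 CPM, up to 6 shared and 4 opposed genes, up to 4 called examples a list, fixed receptors, factors, markers and engineered genes, and the top 3 correlations. Others are said to be chosen later, as are all genes named only outside cluster 4 or within clusters 1 and 5. Members and lists were chosen with earlier results of these data known. Alternatives concerned filters, the Spp1 limit, doublets, totals, depth weights, comparison cells, the marker split, the minimum level and clustering.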

Additional observations from a re-analysis of the deposited data

How the results depend on the processing

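With 1 culture, counting error is the only error known, and the 86 Spp1-zero mesenchymal-marker cells limit the first comparison most. No paired analysis was possible because there is 1 matrix and no replicate. Values of named genes were compared under the other filters, limits and weights listed under processing. Of these, 554 kept their call and direction or stayed uncalled, 51 lost the call and 5 turned. A turn was counted only for genes called in the main comparison, so changes of direction in uncalled genes are not counted. Under the choices of cells made after seeing the data, 177 were unchanged in the same sense, 29 lost the call and 10 turned. The cause of these changes was not tested.

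The share of Spp1-high cells among low-marker cells, 1.39%, was 1.63% with at least 1000 genes and 2000 UMIs, 1.04% with a marker sum of 0, and 1.68% after thinning. With at least 3 Spp1 UMIs and 0.2% it was 2.36%, and 61.2% among mesenchymal-marker cells. With at least 10 Spp1 UMIs and 0.6%, 508 cells were found, and the shares were 0.489% and 25.1%. Split by the epithelial sum, the share among cells with a sum of at most 1 was 35.9%.

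In mesenchymal-marker cells the 45 higher genes became 97 with comparison cells weighted by depth. The 65 lower genes became 25 against all cells below the rule, 26 at 50 CPM and 14 without the top cell. In low-marker cells the 553 and 334 genes became 188 and 124 at 50 CPM, 283 and 162 with an epithelial sum of at least 4 and at most 1 other mesenchymal UMI, 294 and 90 within cluster 1, and 186 and 157 within cluster 5, and the 553 became 363 outside cluster 4.

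Of genes called the same way in both classes, 17 higher and 11 lower, 11 and 6 were left without the highest doublet scores, 9 and 4 with a marker sum of at least 5 and of 0, and 3 and 3 at 50 CPM. The lower genes numbered 6 with at least 3 Spp1 UMIs, 7 with depth weights and 18 against cells below the rule.

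Turns are given for called genes only. Against all mesenchymal-marker cells below the rule the log2 ratio turned for Cxcl10 (-0.16), Uqcc3 (0.046), Ly6d (-0.41) and Mmp13 (0.041). With a marker sum of at least 5 it turned for Wfdc18 (2.36). In low-marker cells Acta2 turned to -0.76 and Sparc to -0.22 with an epithelial sum of at least 4, to -3.10 and -0.58 with at most 1 other mesenchymal UMI as well, to -4.22 and -1.59 outside cluster 4, and to -2.35 and -1.35 within cluster 1. Acta2 was at -0.52 within cluster 5, and Tagln, with 0 UMIs in members, at -1.53 or below outside cluster 4.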
